A study of Mus musculus with 10 samples.

Results

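This account concerns Nrf2 targets and glutathione recycling in mouse jejunum that had lost Pcyt1a from its epithelium. The 10 listed genes were Gclc, Gclm, Gss, Gsr, Txnrd1, Srxn1, Gpx2, Nqo1, Akr1b8 and G6pdx. Each was taken through the probe set whose only annotated gene symbol was the listed name, and 9 of the 10 were found this way among 22180 measured genes, with 1 probe set each. G6pdx had no such probe set and was not analysed here. The genes were selected on their biology with the log2 differences between knockouts and controls on these same arrays known, so their differences between the groups are given as a description, without p-values.

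The knockout group held 5 samples (numbered 1 to 5) from female mice of 10 to 12 weeks that were Pcyt1aLoxP/LoxP;VilCreERT2, with both Pcyt1a alleles floxed. That transgene is a tamoxifen-inducible Cre recombinase driven by the promoter of villin, a gut epithelial gene. The control group held 5 samples (numbered 6 to 10) from female mice of the same age that were Pcyt1aLoxP/LoxP, floxed without Cre. In both groups, 5 days of tamoxifen and 4 days of high fat feeding preceded an overnight fast, per the labels' protocols, and a 3 cm piece of mid small intestine was frozen. The series' design mentions a meal after the fast, while the samples are all labelled as fasted. The source label of the controls describes intestine without phosphatidylcholine synthesis, against their titles and genotype. Each sample was hybridised to 1 Affymetrix whole-transcript array. No label states that each sample is its own mouse, so errors measure the spread between these samples.

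Pcyt1a encodes the rate-limiting enzyme of phosphatidylcholine synthesis through CDP-choline. Its log2 intensity lay between 7.14 and 7.80 on the knockout arrays, against 9.18 to 9.55 on the control arrays, a log2 difference of -1.93 (SE 0.13, limma adjusted p = 9.577e-05). The 15 enterocyte markers averaged a log2 intensity of 12.43 to 12.72 per array in knockouts and 12.57 to 12.79 in controls, while the median over all genes was 5.77 to 5.89 on every array. The piece of gut wall also holds muscle, immune and vascular cells, and in such bulk tissue fewer cells of a type and less RNA per cell cannot be told apart.

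NRF2, the product of Nfe2l2, is a transcription factor that KEAP1 normally presents for degradation. Oxidants and electrophiles modify KEAP1, and the NRF2 that accumulates pairs with small MAF proteins and binds antioxidant response elements near genes for glutathione synthesis, NADPH supply and detoxification. Glutathione is the main soluble thiol of the cell. Its oxidised form is returned to the reduced form with NADPH, a cycle that the gut epithelium uses against dietary and luminal oxidants.

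The knockout and control arrays differed most in Akr1b8, Gsr and Gss, and hardly in Gclc, Gclm and Srxn1. Over the 9 measured genes the log2 differences, knockout minus control, ran from -0.07 for Gclm to 1.27 for Akr1b8, with 6 above 0 and a median of 0.24. That median was 0.143 without knockout 1, 0.153 without knockout 3, and 0.145 with the proliferation and 0.157 with the Paneth marker level as a covariate. The median over all 22180 genes was -0.014, with 46.5% above 0. Among the 10336 genes with a mean log2 intensity of at least 6, the median was 0.034, against 0.158 for the 7 members among them. In the limma fit over all genes at an adjusted p under 0.05, 0 of the 9 genes were called, against 0.0271% of all genes (6 genes, 1 higher and 5 lower). With array medians subtracted, or with a further quantile normalisation, 0 of the 9 and 0.00902% of all genes were called (2 genes, 0 higher and 2 lower). For 2 of the 9, Akr1b8 and Gss, knockouts and controls did not overlap, against 2.60% of all genes. Since this contrast was known when the genes were chosen, nothing is read from these shares.

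**Figure D1:**
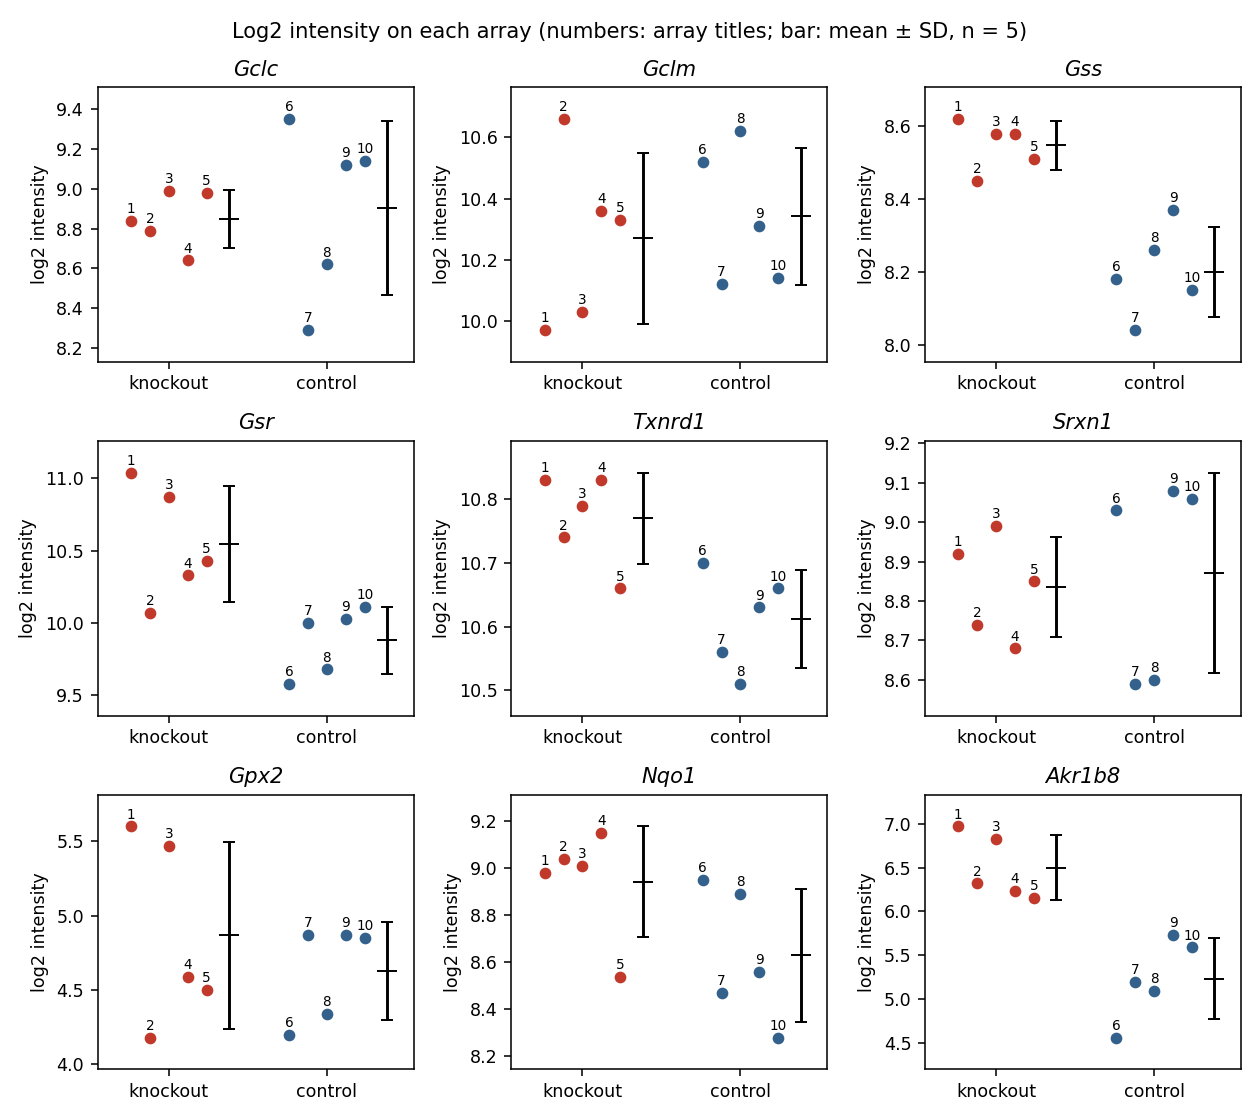
Log2 intensity of each measured gene on each array, with knockouts on the left and controls on the right of every panel; the number beside a point is the array's number, the black bar is the mean ± SD (n = 5), and each panel has its own vertical range. Akr1b8 and Gss show no overlap between the groups, Gsr overlaps only through knockout 2 at 10.07 and control 10 at 10.11, and Gclc, Gclm and Srxn1 lie on both sides of each other.

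The upstream sequences of 4 genes are shown because they span the range of behaviour described here. Akr1b8 and Gss are the genes whose groups did not overlap, Gclm ran against Gsr from array to array, and Srxn1 went with Gclc. Each is the stretch before the RefSeq transcript start (GRCm38.p6), read in the direction of the gene, and capitals mark matches to TGACNNNGC or TGAGNNNGC, forms of the antioxidant response element core, or to TGANTCA, an AP-1 type site that can overlap them.
Akr1b8: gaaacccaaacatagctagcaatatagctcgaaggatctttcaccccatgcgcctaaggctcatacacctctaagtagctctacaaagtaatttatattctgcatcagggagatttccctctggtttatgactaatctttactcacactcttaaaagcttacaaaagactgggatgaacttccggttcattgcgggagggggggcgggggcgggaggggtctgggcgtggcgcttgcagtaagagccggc
Gss: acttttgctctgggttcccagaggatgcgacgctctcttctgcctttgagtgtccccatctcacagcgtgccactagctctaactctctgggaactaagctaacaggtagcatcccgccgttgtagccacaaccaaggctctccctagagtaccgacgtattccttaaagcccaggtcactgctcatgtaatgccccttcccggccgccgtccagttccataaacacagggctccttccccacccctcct
Gclm: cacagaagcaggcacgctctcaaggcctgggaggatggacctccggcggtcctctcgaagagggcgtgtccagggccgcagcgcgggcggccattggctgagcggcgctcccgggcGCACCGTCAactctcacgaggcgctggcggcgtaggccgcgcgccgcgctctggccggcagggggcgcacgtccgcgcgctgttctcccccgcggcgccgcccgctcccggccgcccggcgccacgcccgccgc
Srxn1: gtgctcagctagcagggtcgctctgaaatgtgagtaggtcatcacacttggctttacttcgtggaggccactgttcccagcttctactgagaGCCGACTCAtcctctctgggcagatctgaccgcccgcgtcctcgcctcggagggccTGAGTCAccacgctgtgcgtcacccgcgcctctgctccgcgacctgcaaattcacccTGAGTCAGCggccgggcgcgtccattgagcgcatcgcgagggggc
The Akr1b8 stretch lies at chr6:34353896-34354145 on the plus strand, the Gss stretch at chr2:155592811-155593060 on the minus strand, the Gclm stretch at chr3:122245307-122245556 on the plus strand, and the Srxn1 stretch at chr2:152105274-152105523 on the plus strand. Both strands were searched in windows of 250 bases before to 50 after each start, which were given for 8 of the 10 genes. These genes had 10 windows in all, and TGACNNNGC was found in 4 of the 10, from Gclm, Txnrd1, Srxn1 and G6pdx, against 12.4% of 32851 windows of the same length. In Gclm the match lay at -134 to -126, in G6pdx at -57 to -49, and in Srxn1 at 29 to 37 past the start, beyond the printed stretch. Txnrd1 had windows at 3 starts, and 1 of them held a match at -92 to -84. TGAGNNNGC, found in 17.6% of all windows, matched at 2 places in Srxn1, of which the match at -45 to -37 overlaps a TGANTCA match at -45 to -39. A second TGANTCA match in Srxn1 lay at -102 to -96, and 7.81% of all windows held that motif. The windows of Akr1b8, Gss, Gpx2 and Nqo1 held none of these 3 motifs. The table had no window for Gsr or Gclc. A match describes letters in this window and says nothing of NRF2 binding, and no match says nothing against it.

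Glutathione is built in steps by glutamate-cysteine ligase and glutathione synthetase. Gclc encodes the catalytic subunit of the ligase, the rate-limiting step. On knockout arrays 1 to 5 Gclc read 8.84, 8.79, 8.99, 8.64 and 8.98, against 9.35, 8.29, 8.62, 9.12 and 9.14 on control arrays 6 to 10. The controls spread widely on both sides of the knockouts, and the means were 8.85 ± 0.15 in knockouts and 8.90 ± 0.44 in controls (SD, n = 5), a log2 difference of -0.06 (SE 0.18, 95% interval -0.45 to 0.34).

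Gclm encodes the modifier subunit, which raises the ligase's catalytic efficiency. It read 9.97, 10.66, 10.03, 10.36 and 10.33 on knockout arrays 1 to 5, against 10.52, 10.12, 10.62, 10.31 and 10.14 on control arrays 6 to 10. Knockout 2 was the highest of the 10 arrays and knockout 1 the lowest, and the log2 difference was -0.07 (SE 0.15, 95% interval -0.39 to 0.25).

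Gss encodes glutathione synthetase, which adds glycine in the last step. Its values were 8.62, 8.45, 8.58, 8.58 and 8.51 on knockout arrays 1 to 5, against 8.18, 8.04, 8.26, 8.37 and 8.15 on control arrays 6 to 10. The lowest knockout, knockout 2, stood above the highest control, control 9. The means were 8.55 ± 0.07 in knockouts and 8.20 ± 0.12 in controls (SD, n = 5), a log2 difference of 0.35 (SE 0.08, 95% interval 0.17 to 0.53) or 1.27-fold. Of the 3 synthesis genes, Gss alone had groups that did not overlap.

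Disulfide reduction draws on Gsr, Txnrd1 and Srxn1. Gsr encodes glutathione reductase, which returns oxidised glutathione to its reduced form with NADPH. It read 11.04, 10.07, 10.87, 10.33 and 10.43 on knockout arrays 1 to 5, against 9.58, 10.00, 9.68, 10.03 and 10.11 on control arrays 6 to 10. All knockouts but knockout 2 stood above all controls, and knockouts 1 and 3 stood apart from the other knockouts at the top. The means were 10.55 ± 0.40 in knockouts and 9.88 ± 0.23 in controls (SD, n = 5), a log2 difference of 0.67 (SE 0.18, 95% interval 0.27 to 1.06) or 1.59-fold.

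Txnrd1 encodes cytosolic thioredoxin reductase, a selenoenzyme that works in parallel to glutathione reductase. Its values were 10.83, 10.74, 10.79, 10.83 and 10.66 on knockout arrays 1 to 5, against 10.70, 10.56, 10.51, 10.63 and 10.66 on control arrays 6 to 10. Its SDs of 0.07 in knockouts and 0.08 in controls were the lowest of the 9 genes, apart from that of Gss in knockouts. The log2 difference was 0.16 (SE 0.08, 95% interval -0.01 to 0.32), and knockout 5 equalled control 10 and lay below control 6.

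Srxn1 encodes sulfiredoxin, which rescues over-oxidised peroxiredoxins. It read 8.92, 8.74, 8.99, 8.68 and 8.85 on knockout arrays 1 to 5, against 9.03, 8.59, 8.60, 9.08 and 9.06 on control arrays 6 to 10. All knockout values fell within the range of the controls, and the log2 difference was -0.04 (SE 0.12, 95% interval -0.30 to 0.23).

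Gpx2 encodes the gastrointestinal glutathione peroxidase, a selenoenzyme that spends glutathione on hydroperoxides and is known from crypt epithelium in mice. Its values were 5.60, 4.18, 5.47, 4.59 and 4.50 on knockout arrays 1 to 5, against 4.20, 4.87, 4.34, 4.87 and 4.85 on control arrays 6 to 10. The knockouts formed a wide range that enclosed the controls, with knockouts 1 and 3 high and knockout 2 lowest. The log2 difference was 0.24 (SE 0.27, 95% interval -0.34 to 0.83). The mean of this probe set, 4.75 over the 10 arrays, lay below the array median, and detection values were not used here.

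Nqo1 encodes a quinone reductase that is widely used as a readout of NRF2 activity. It read 8.98, 9.04, 9.01, 9.15 and 8.54 on knockout arrays 1 to 5, against 8.95, 8.47, 8.89, 8.56 and 8.28 on control arrays 6 to 10. Knockout 5 stood apart below the other knockouts, which all lay above the highest control. The means were 8.94 ± 0.23 in knockouts and 8.63 ± 0.28 in controls (SD, n = 5), a log2 difference of 0.31 (SE 0.15, 95% interval -0.01 to 0.64).

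Akr1b8 encodes an aldo-keto reductase that uses NADPH to reduce aldehydes. Its values were 6.97, 6.32, 6.83, 6.23 and 6.15 on knockout arrays 1 to 5, against 4.56, 5.20, 5.09, 5.73 and 5.59 on control arrays 6 to 10. Every knockout array was above every control array. The means were 6.50 ± 0.37 in knockouts and 5.23 ± 0.46 in controls (SD, n = 5), a log2 difference of 1.27 (SE 0.23, 95% interval 0.77 to 1.76) or 2.40-fold. All control values lay below the lowest array median of 5.77, and detection values were not used here. Akr1b8 has close relatives in the mouse genome, and whether its probes also read them was not tested.

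The 9 genes did not vary as a block among the arrays of a group. With group means removed, Gsr, Gpx2 and Akr1b8 went up and down together, Gclm went opposite to Gsr and Gpx2, and Gclc went with Srxn1. All 36 pairs were compared over the 10 arrays by a two-sided exact permutation test within groups (14400 orders, smallest possible p 6.94e-05), with Benjamini-Hochberg adjustment over the 36, and 6 pairs had an adjusted p under 0.05 by Pearson's r. Gsr and Gpx2 had r = 0.982 (exact permutation p = 0.000833, adjusted 0.0238) and Spearman's rho = 0.912 (exact permutation p = 0.00403, adjusted 0.0483). Gsr and Gclm had r = -0.945 (exact permutation p = 0.00132, adjusted 0.0238) and rho = -0.927 (exact permutation p = 0.00236, adjusted 0.0483). The peroxidase Gpx2 and Gclm had r = -0.928 (exact permutation p = 0.00236, adjusted 0.0283) and rho = -0.918 (exact permutation p = 0.00278, adjusted 0.0483).

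These relations held without the 2 arrays farthest from the median of the first gene, where r was 0.964 for Gsr with Gpx2, -0.909 for Gsr with Gclm and -0.879 for Gclm with Gpx2. They also had the same sign in either group, with r of 0.983 in knockouts and 0.981 in controls for Gsr with Gpx2, and of -0.984 in knockouts and -0.891 in controls for Gsr with Gclm. The reductase Akr1b8 had r = 0.827 with Gsr and 0.826 with Gpx2 (exact permutation p = 0.00431 and adjusted 0.031 for each), and 0.894 and 0.863 without the 2 farthest arrays. Its rho was 0.794 with Gsr and 0.796 with Gpx2 (exact permutation p = 0.00958 and 0.00778), with an adjusted p of 0.0625 for each, which missed the threshold. With Gclm, Akr1b8 had r = -0.679 (exact permutation p = 0.0435, adjusted 0.224), which did not pass. Gclc and Srxn1 had r = 0.905 (exact permutation p = 0.00708, adjusted 0.0425) and rho = 0.939 (exact permutation p = 0.0104, adjusted 0.0625), and r was 0.944 without the 2 farthest arrays. The ligase subunits Gclc and Gclm had r = 0.026 (exact permutation p = 0.946, adjusted 0.973) and rho = -0.115 (exact permutation p = 0.722, adjusted 0.838). That r was not stable, at -0.604 without the 2 farthest arrays, -0.402 in knockouts and 0.211 in controls. Tissue makeup is shared by all genes of an array, so these pairs are not independent of each other.

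**Figure D2:**
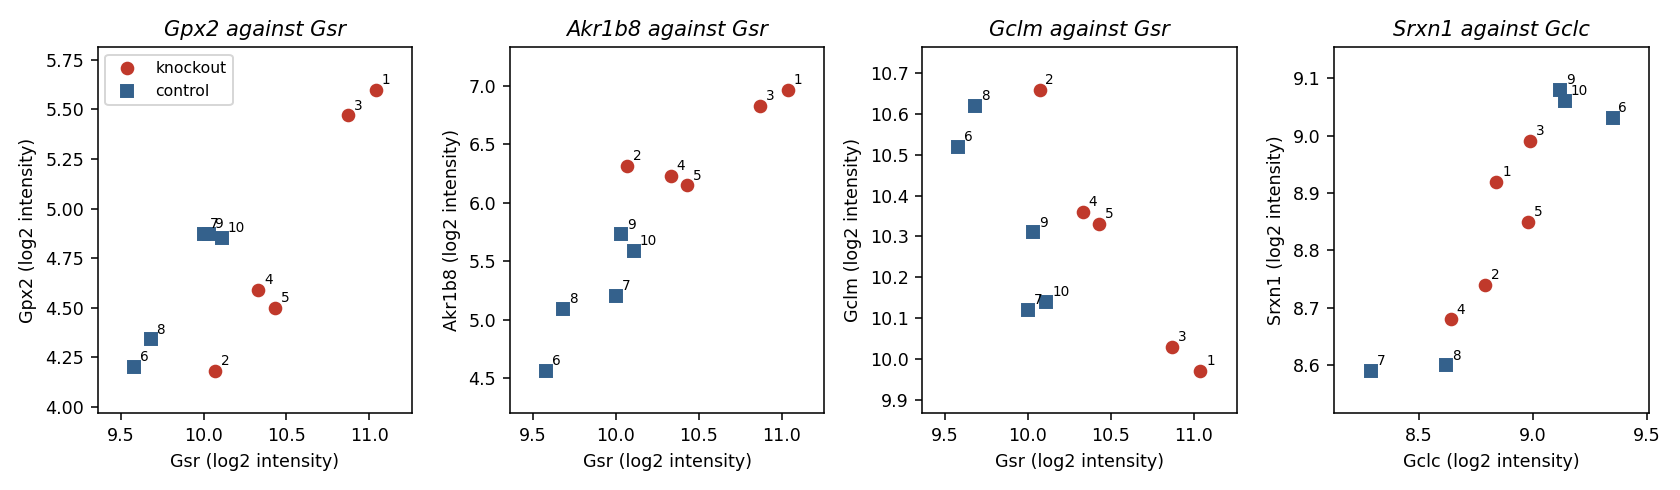
Log2 intensity of pairs of genes, with a point for each array (red circles, 5 knockouts; blue squares, 5 controls; numbers from the array titles). Gpx2 and Akr1b8 climb with Gsr within each group, Gclm descends with it, and Srxn1 climbs with Gclc.

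Paneth cell markers were high and low on the same arrays as Gsr and Gpx2. Paneth cells, which secrete antimicrobial peptides at the crypt base, were represented by 9 measured of 12 listed markers, whose mean centred log2 level ran from -1.61 to 1.04 in knockouts and from -1.54 to 0.62 in controls. Among the knockouts it was 1.04 on knockout 3 and 0.97 on knockout 1, the arrays highest in Gsr, Gpx2 and Akr1b8, and -1.61 on knockout 2, the array lowest in Gsr and Gpx2 and highest in Gclm. Among the controls it was -1.54 on control 6 and -0.90 on control 8, the arrays lowest in Gsr and Gpx2 and highest in Gclm. With this marker level as a covariate the log2 difference was 0.58 (SE 0.10) for Gsr, 1.17 (SE 0.17) for Akr1b8, 0.11 (SE 0.16) for Gpx2 and -0.002 (SE 0.09) for Gclm. Knockout 2 was also the lowest knockout, and controls 6 and 8 the lowest controls, in proliferation and crypt stem cell markers. In that order the crypt stem cell levels were -0.32, -0.71 and -0.20. Enterocyte markers were highest in each group on these arrays, at 0.10, 0.17 and 0.09. Smooth muscle markers did not follow this order, with knockout 4 lowest of the knockouts at -0.69. The pattern was thus not particular to Paneth markers, and its source was not tested.

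Proliferation markers differed between the groups themselves. All 15 measured of 16 listed markers had a log2 difference above 0, and 0 were called. Their mean level was -0.26 to 0.68 in knockouts and -0.997 to -0.18 in controls, so that knockout 2 alone among the knockouts lay within the range of the controls. With this level as a covariate the log2 difference of Gsr was 0.13 (SE 0.20), against 0.67 without it, that of Akr1b8 was 0.65 (SE 0.27), and Gpx2 turned to -0.58 (SE 0.28) and Gclm to 0.33 (SE 0.17). Gss was at 0.27 (SE 0.12), Txnrd1 at 0.15 (SE 0.11) and Nqo1 at 0.48 (SE 0.23) in that fit. The marker level and the genotype went together on these arrays, and their parts in the differences of Gsr, Akr1b8, Gpx2 and Gclm were not tested separately.

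**Figure D3:**
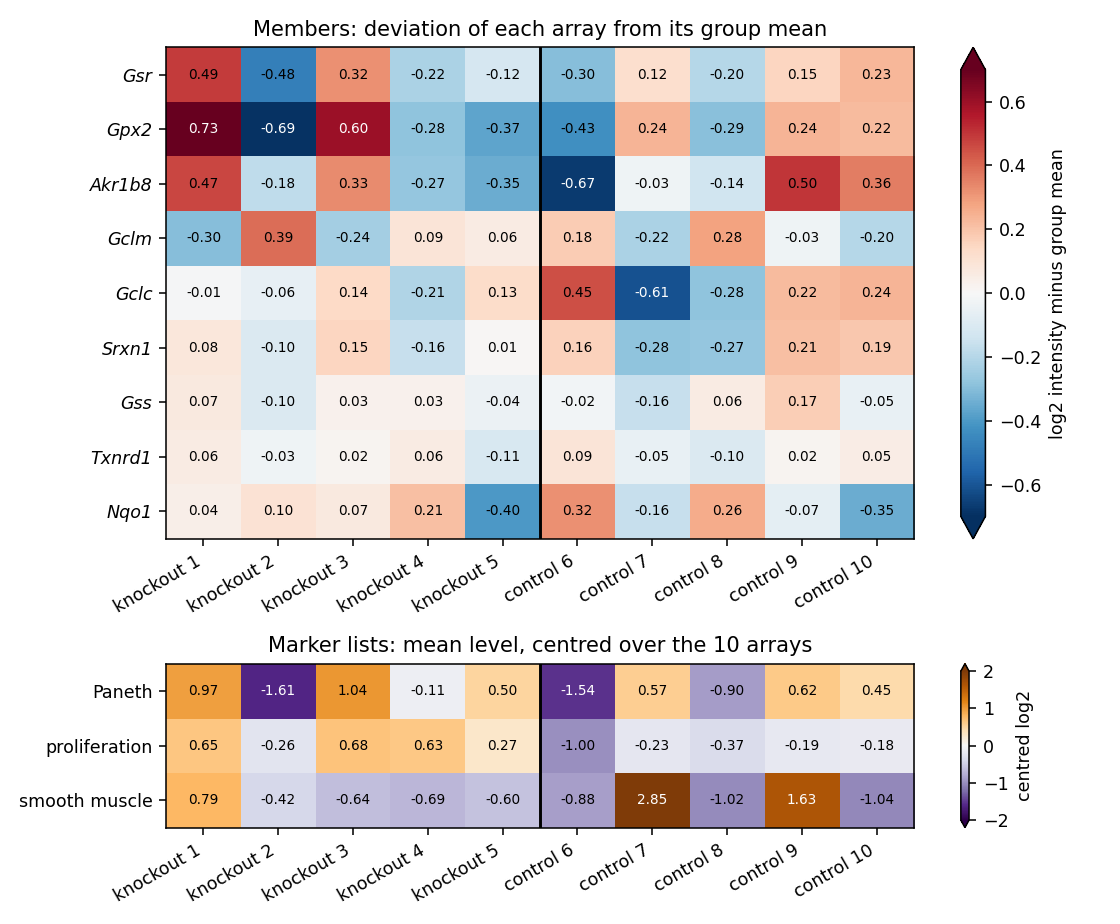
Upper map, log2 intensity of each gene on each array minus its group mean (red above, blue below); lower map, mean log2 level of 3 marker lists centred over the 10 arrays; the vertical line parts the 5 knockouts on the left from the 5 controls. Knockouts 1 and 3 are high in Gsr, Gpx2, Akr1b8 and Paneth markers, knockout 2 and controls 6 and 8 are low in Gsr, Gpx2 and Paneth markers, and Gclm has the opposite signs.

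Smooth muscle markers, at -0.69 to 0.79 on the knockout arrays and -1.04 to 2.85 on the control arrays over all 10 listed, were highest on controls 7 and 9 and knockout 1. As a covariate they left the log2 difference of Gsr at 0.73 (SE 0.18), of Gss at 0.34 (SE 0.09) and of Akr1b8 at 1.34 (SE 0.22). The part of muscle in Gclc, which was lowest on control 7 at 8.29, was not tested beyond this fit, where its log2 difference was -0.13 (SE 0.17). Endothelial markers were above 0 for 8 of 8 genes, with a mean level of -0.07 to 0.55 in knockouts and -0.82 to 0.03 in controls. For macrophage markers 9 of 10 were above 0, at -0.09 to 0.48 in knockouts and -0.41 to 0.09 in controls. Enterocyte markers were above 0 for 3 of 15 and crypt stem cell markers for 11 of 13. Paneth markers were above 0 for 8 of 9 (median 0.386) and smooth muscle markers for 0 of 10 (median -0.653). No marker of these lists was called, and their part in the differences of the 9 genes was not tested beyond the covariate fits.

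Knockout 2 had the most weight on the number of calls. It also had the highest Pcyt1a level of the knockouts, which read 7.14, 7.80, 7.30, 7.54 and 7.53 on arrays 1 to 5. Among the knockouts this is the reverse of the order of Gsr. On control arrays 6 to 10 Pcyt1a read 9.55, 9.25, 9.50, 9.18 and 9.48. Controls 6 and 8, the highest controls in Pcyt1a, were the lowest in Gsr, while control 10, highest in Gsr, was not the lowest in Pcyt1a. A link between the levels was not tested in either group. Leaving knockout 2 out gave 452 calls (2.04% of 22180), and Gsr and Akr1b8 were 2 of the 9 among them, with log2 differences of 0.79 (SE 0.17) and 1.31 (SE 0.25). With the Paneth marker level as a covariate 315 genes were called (1.42%), and the same genes, Gsr and Akr1b8, were among them. Without the 3 arrays lowest in Paneth markers, which are knockout 2 and controls 6 and 8, 69 genes were called (0.311%) and 0 of the 9 genes. In that fit the log2 difference was 0.62 (SE 0.17) for Gsr and 1.04 (SE 0.23) for Akr1b8. These counts describe the fits and are no test of the genes, which were chosen with the contrast known.

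**Figure D4:**
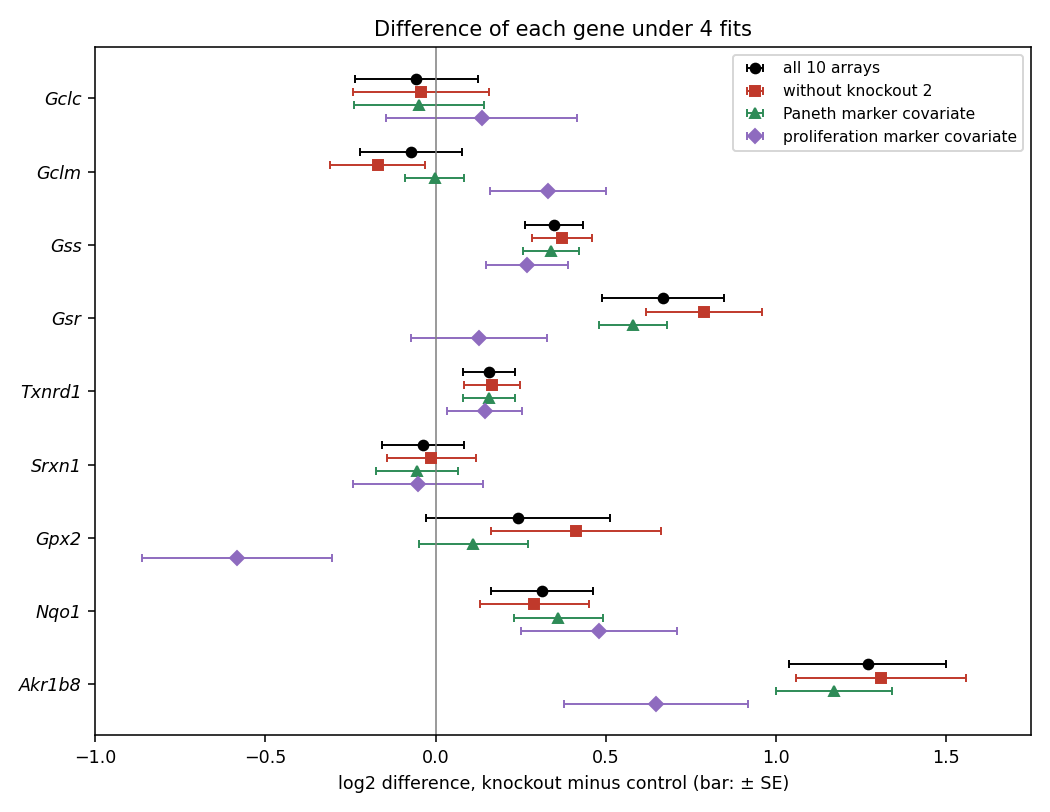
Log2 difference, knockout minus control, of each gene (point) with its SE (bar) under 4 fits. The points of Akr1b8, Gss, Txnrd1, Nqo1 and Gsr stay to the right of 0 in all 4. With the proliferation marker covariate Gsr moves to 0.13, where its bar (SE 0.20) crosses 0. In that fit Gpx2 moves to -0.58, Gclm to 0.33 and Gclc to 0.14, and Srxn1 stays near 0 in all 4.

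The genes around these members gave 0 calls in the fit over all genes. Of 115 other genes on 6 lists, 101 were measured and 64 had a log2 difference above 0 (median 0.06). At an unadjusted limma p under 0.05 there were 16 of the 101, against 13.9% of all genes. The groups did not overlap for 3 of the 101, all higher in knockouts, against 1.64% of all genes.

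NRF2 and the proteins that control it showed no difference that passed. Nfe2l2 itself averaged 10.92 ± 0.15 in knockouts and 10.82 ± 0.21 in controls (SD, n = 5), a log2 difference of 0.10 (SE 0.12). Keap1, its negative regulator, was at 0.04 (SE 0.08), and Cul3, the ubiquitin ligase scaffold that KEAP1 works with, at 0 (SE 0.09). The small MAF partners Mafg, Maff and Mafk were at 0.11 (SE 0.08), -0.002 (SE 0.15) and -0.02 (SE 0.13). Bach1 and Bach2, repressors that compete for the same sites, were at -0.19 (SE 0.16) and -0.24 (SE 0.15). The related factor Nfe2l1 was at 0.14 (SE 0.09), and Sqstm1, an autophagy receptor that binds KEAP1, at -0.05 (SE 0.09). Transcript levels do not report NRF2 protein, which KEAP1 controls by degradation. The lowest limma adjusted p of these 10 genes was 0.51.

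Other targets listed for NRF2 were measured for 24 of 32 genes, of which 16 had a log2 difference above 0 (median 0.056) and 0 were called. The ends of the range were Ces1g, a carboxylesterase, at -0.79 (SE 0.38) and Cbr3, a carbonyl reductase, at 0.69 (SE 0.31). Hmox1, the haem-degrading enzyme that is a common NRF2 readout, was at 0.25 (SE 0.11) and Slc7a11, which imports cystine for glutathione synthesis, at 0.55 (SE 0.25). The mean log2 intensities of Cbr3 (4.71), Hmox1 (5.62) and Slc7a11 (4.84) lay below the lowest array median of 5.77. The 3 genes of highest level on the list were not called either, with Fth1 of the ferritin shell at -0.20 (SE 0.12), the efflux pump Abcc2 at -0.34 (SE 0.23) and the UDP-glucose dehydrogenase Ugdh at 0.05 (SE 0.19). The lowest limma adjusted p of the list was 0.334.

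Enzymes that supply NADPH, the reductant that Gsr, Txnrd1, Nqo1 and Akr1b8 share, had 10 of 11 measured genes above 0 (median 0.238) and 0 called. Pgd, the dehydrogenase of the pentose phosphate pathway that follows glucose-6-phosphate dehydrogenase, read 10.98, 10.77, 11.04, 10.87 and 10.66 on knockout arrays 1 to 5, against 10.49, 10.47, 10.36, 10.52 and 10.33 on control arrays 6 to 10. Every knockout array was above every control array, and the log2 difference was 0.43 (SE 0.09, limma adjusted p = 0.118). Without knockout 2 Pgd was called, at 0.45 (SE 0.10), and it was the 1 gene of these 101 called in any fit run. Malic enzyme Me1 was at 0.56 (SE 0.32), the isocitrate dehydrogenase Idh1 at 0.16 (SE 0.15) and transaldolase Taldo1 at -0.002 (SE 0.10).

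Of the other glutathione genes 24 of 26 were measured, 14 were above 0 (median 0.036), and 0 were called. Gpx1, the general glutathione peroxidase, was at 0.38 (SE 0.12), and Gpx4, which reduces lipid hydroperoxides in membranes, at -0.07 (SE 0.09). Glrx5, a mitochondrial glutaredoxin of iron-sulfur cluster assembly, was named because its groups did not overlap, at 9.13 ± 0.12 in knockouts and 8.73 ± 0.15 in controls (SD, n = 5), with a limma adjusted p of 0.139. The range ran from -0.11 for Hagh, which acts in methylglyoxal disposal, to 0.41 for the secreted peroxidase Gpx3. The genes of highest level, Glrx, Dpep1 and Gsto1, were at -0.05 (SE 0.09), 0.11 (SE 0.14) and 0.14 (SE 0.08).

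The thioredoxin and peroxide list had 17 of 20 genes measured, 10 above 0 (median 0.046) and 0 called. Its range ran from -0.21 for the methionine sulfoxide reductase Msrb2 to 0.43 for the mitochondrial peroxiredoxin Prdx3 (SE 0.13, limma adjusted p = 0.189). Txn1, the substrate of Txnrd1, was at 0.07 (SE 0.09), and the other thioredoxin reductases Txnrd2 and Txnrd3 were at 0.11 (SE 0.08) and 0.05 (SE 0.10). Catalase (Cat) was at -0.20 (SE 0.15) and the superoxide dismutase Sod1 at 0.08 (SE 0.07).

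Gpx2 and Txnrd1 are selenoproteins, whose translation needs a dedicated machinery. Of 16 genes of that machinery and other selenoproteins all were measured, 11 were above 0 (median 0.068), and 0 were called. Selenop, the plasma selenium carrier, was lowest at -0.28 (SE 0.11), and Selenoh highest at 0.34 (SE 0.12). Selenos, of the endoplasmic reticulum, did not overlap between the groups, at 9.10 ± 0.08 in knockouts and 8.84 ± 0.11 in controls (SD, n = 5; limma adjusted p = 0.202). Sephs2, which makes the selenium donor, was at 0.10 (SE 0.15), and Selenof at 0.14 (SE 0.08).

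**Figure D5:**
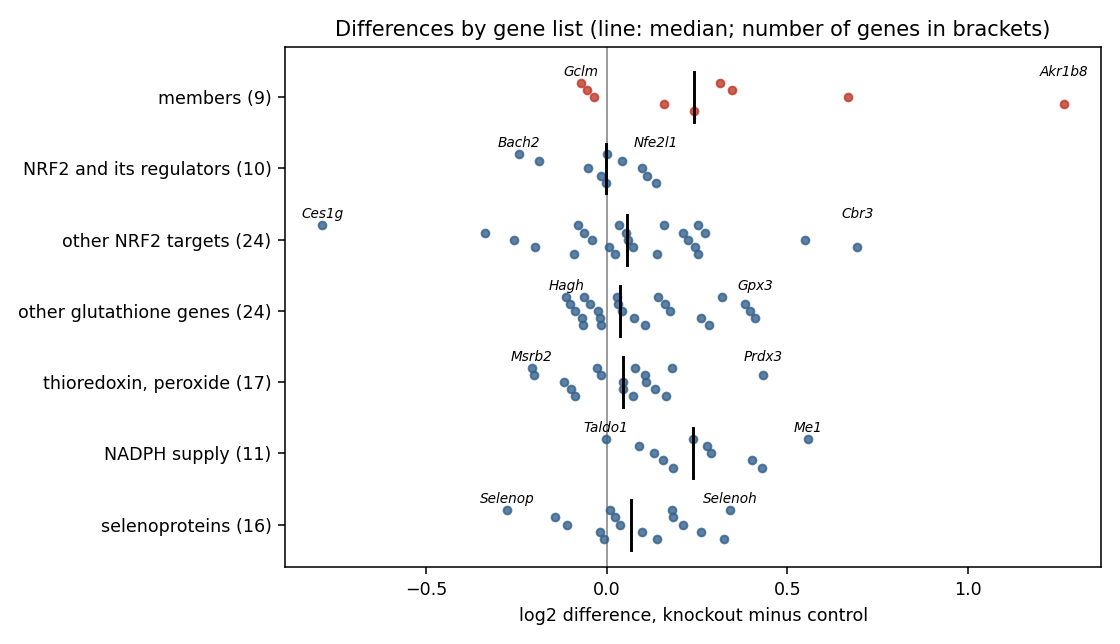
Log2 difference, knockout minus control, of every measured gene of the 9 members (red) and of 6 lists of other genes (blue), with the median of each as a black line and the genes at the ends of each range named. The NADPH list has 10 of 11 genes above 0, the NRF2 regulators lie between -0.24 and 0.14, and among all of these genes Akr1b8 is farthest to the right.

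Other genes were ranked by Pearson's r with the mean centred level of the 9 members over the 10 arrays, as a description without p-values. The members were not scaled to a common spread. Those that vary most, such as Akr1b8, Gpx2 and Gsr, therefore weigh most in this mean, and Txnrd1 and Gss weigh little. Over all arrays the genes ranked highest were Ripk3, a kinase of necroptosis, at r = 0.975, followed by Dag1, Wars, Ttll12, Arpin and Fkbp11, the last at r = 0.957. With group means removed they were Odc1, the first enzyme of polyamine synthesis, at r = 0.94, Ripk3, Olfr821, Mir1953, Ttll12 and Capn5, the last at r = 0.915. Olfr821 and Mir1953 had mean log2 intensities of 3.07 and 4.45, below the lowest array median of 5.77.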

How the data were processed

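Per the submitters' processing notes, the authors used RMA and Affymetrix Expression Console 1.4.1.46 to summarise probe sets. The deposited values are intensities on the linear scale, from 1.88 to 15500.2, and log2 was taken first. The genome build behind the probe sets is not given in the sources used here. Of 34472 probe sets, 23521 had a single gene symbol in the platform annotation, 1814 had several and 9137 had none. The probe set of highest mean was kept for each gene, giving 22180 genes without an intensity filter. Groups came from the sample titles.

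The comparison of knockouts with controls used limma 3.58.1 (lmFit, eBayes) under R 4.3.3, with p-values adjusted over all genes (Benjamini-Hochberg) and called under 0.05. The procedure was tested on simulated data with noise drawn independently for each gene. That simulation does not cover variation shared by the genes of an array, such as tissue makeup. The members and lists were chosen with earlier results of these data known. Genes named outside the members are the NRF2 regulators, a set of pathway genes written by hand, the 3 genes of highest level and the ends of the range of each list, and the genes most like the members. Glrx5 and Selenos were named after their values were seen. Alternatives covered scaling, intensity filters, probe set choice, variance models, single arrays left out and marker covariates. For arrays, their number limits the precision. No labels name a batch, and 0 arrays held identical values.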

Additional observations from a re-analysis of the deposited data

Results flagged for a closer look

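Among the 18 sets of 5 arrays formed by the 9 genes in each group, Nqo1 on knockout 5 stood far from the rest, at a log2 intensity of 8.54 against 8.98 to 9.15 on the other knockouts. Its gap to the nearest array was 0.721 of the group's range, past the Dixon limit of 0.71 for 5 samples. Chance gives such a gap in about 1 of 20 sets.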

How the results depend on the processing

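The member differences, their median and the counts of calls were recomputed under 22 alternatives, and the pair correlations, marker levels, list medians, ranks of similar genes and motif shares were not. Of these alternatives, leaving out the 3 arrays lowest in Paneth markers was chosen after seeing the data. Gsr (0.13 to 0.79), Gss (0.27 to 0.39), Nqo1 (0.23 to 0.48), Txnrd1 (0.13 to 0.19) and Akr1b8 (0.65 to 1.39) kept a log2 difference above 0 in each fit that measured them. Gclc, Gclm, Srxn1 and Gpx2 took both signs. The member median, 0.24, ranged from 0.143 to 0.334 with 1 array left out; it was 0.145 with the proliferation marker level and 0.157 with the Paneth marker level as a covariate, and 0.158 over the members with a mean log2 intensity of at least 6. Of 195 member values 191 moved by less than the SD between arrays, and the other 4 were Gsr, Gclm, Gpx2 and Akr1b8 with the proliferation covariate. The genes called over all genes numbered 6, against 2 with array medians subtracted, with a further quantile normalisation or without the 3 arrays highest in smooth muscle markers, 1 with the proliferation covariate, 69 without the 3 arrays lowest in Paneth markers and 315 with the Paneth covariate. They numbered 2 to 452 with any 1 array left out. Members called numbered 0, against 2 with the Paneth covariate and 0 to 2 with any 1 array left out. Other pathway genes called numbered 0 to 1 with any 1 array left out. Gpx2 was dropped by intensity filters of 5 and 6 and Akr1b8 by the filter of 6. No paired analysis was possible because the knockout and control arrays share no numbers. Why these values moved was not tested.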
